A study of Mus musculus with 9 samples.

Results

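The comparison described here sets spinal motoneurons of stimulated mice against those of untrained mice with the same injury, and takes in 6 of the 9 samples of the series. The members are samples and not genes, so 15893 genes enter. They are the 3 libraries of the SBES group, which had a spinal cord injury and synergistic bidirectional electrical stimulation, and the 3 libraries of the untrained group, which had the injury alone. Replicates 1, 2 and 3 of the SBES group were stimulated at 10, 15 and 20 Hz. Each frequency therefore has 1 library, and none was tested against another. All mice are labelled wild type, with no transgene named, and no age, sex, site of injury or course of stimulation is given in the sources used here. The 3 sham libraries, whose labelled treatment is none, share the time point and the sampling. Their values stand beside the others without a test.

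Motoneurons carrying the label TRDA were drawn one after another with glass electrodes from slices of fresh cord, 4 weeks after injury, and sequenced with Smart-seq2, which copies full-length cDNA from very little RNA. The titles speak of single cells, but the number of neurons in a library is not stated, and the labels name 3 mice a group without tying a library to a mouse. What the p-values below weigh is thus how far these libraries lie apart, which may in part be technical. The columns of the 3 untrained libraries and of the 10 Hz library were matched by elimination, because their headers do not spell out the titles, and all their values rest on that match.

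Spinal motoneurons are the cholinergic cells that drive skeletal muscle. When an injury lies above them they lose most of their descending input while their axons to muscle stay intact. Firing and calcium entry switch on immediate early genes such as Fos and Egr1 through the transcription factors CREB and SRF. Glucocorticoids act through a nuclear receptor that induces a compact set of targets in nearly every tissue, among them Fkbp5, Tsc22d3, Per1 and Ddit4, and many of these also answer to fasting, through FOXO factors, or to cytokines.

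The 6 libraries held 11821145 to 15907743 counts and 21791 to 23374 detected genes. Motoneuron transcripts were present in each, with Chat, the acetylcholine synthase, at 20.2, 32.3 and 30.9 CPM (counts per 1000000) in untrained libraries 1 to 3 and 21.5, 22.5 and 33.8 at 10, 15 and 20 Hz. Transcripts of other cells were abundant, as Mbp, the myelin basic protein gene, ran from 32381 to 67259 CPM over the 6 libraries. Untrained 1 and the 10 Hz library stood apart from the other 4 on the first principal component of the 6, at -49.5 and -51.8 against 11.2 to 39.8. They also stood apart from each other on the second component, at -52.4 and 51.7. The 2 held the most Malat1, a nuclear noncoding RNA, at 16069 and 4774 CPM of all counts against 514 to 1498 in the others, and the 10 Hz library alone had 18.6% mitochondrial counts against 2.47% to 6.27%. Sham 1 was also high in Malat1, at 15128 CPM of all counts against 1617 and 1545 in sham 2 and 3. Results are therefore also given without the replicate 1 libraries where these decide a value. Below, 3 values in a row stand for untrained libraries 1, 2 and 3, for the stimulated libraries at 10, 15 and 20 Hz, or for sham libraries 1, 2 and 3, always in that order.

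Stimulated libraries held more of many hormone-responsive and early response genes and less of some vascular, interferon and microglial genes than untrained ones. The interferon genes stood lower as a list, while vascular and microglial markers went in both directions. At 3 libraries a group, few single genes stood out from the spread. No gene passed edgeR's quasi-likelihood test at a Benjamini-Hochberg adjusted p of 0.05 (0% of 15893; smallest adjusted p 0.456). At an unadjusted p under 0.05 there were 854 genes, beside the 795 that 5% of 15893 tests make. Of these 588 were higher (3.7% of genes tested) and 266 lower (1.67%). A log2 fold change above 0, SBES over untrained, was found in 51.7% of genes, and the median over all genes was 0.02. The 3 SBES libraries lay above all 3 untrained ones for 5.66% of genes and below them for 4.77%. DESeq2, the test the authors used per the labels' protocols, called 22 genes higher (0.145% of 15171) and 7 lower (0.0461%), and each of these 29 had an unadjusted edgeR p of 0.00281 or less and no overlap between the groups. The balance of directions rests on the scaling. With library totals in place of TMM factors the median of all genes moved to -0.19 and the split became 236 higher and 397 lower, and limma gave splits of 141 and 252 on log2(FPKM + 1), where the median was -0.17, and of 119 and 257 on log2(FPKM + 0.1), where it was -0.22. Gene lists are therefore read against the median of all genes.

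Setdb2 had the smallest p of all genes. It encodes a SET domain protein of the histone H3 lysine 9 methyltransferase family. The gene lies on the minus strand of chromosome 14 (chr14:59402009-59440884, mm10). Its level was 1.72, 1.95 and 1.99 CPM in untrained libraries 1 to 3 and 26.4, 11.2 and 29 at 10, 15 and 20 Hz. The untrained values were all but equal, and the lowest stimulated library stood at more than 5 times any of them. The group means were 1.89 ± 0.146 and 22.2 ± 9.6 CPM (SD, n = 3), a fold of 11.8. The log2 fold change was 3.55 (SE 0.56), with an edgeR adjusted p of 0.456 and a DESeq2 adjusted p of 5.3e-08. Sham libraries held 0.218, 2.73 and 1.42 CPM. Among 20 SET domain and related methyltransferase genes 1 other, Setd7, had an unadjusted p under 0.05 and was higher, against 3.7% of all genes. The median of the list was 0.17, or -0.09 with library totals.

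The promoters of Setdb2, Txnip and Zfp36 are shown, the first for its rank and the others because each holds a motif that was searched for. Each run is the 250 bases before the RefSeq start site, on the gene's strand, in GRCm38.p6, in lower case with motif matches in capitals.
Setdb2, chr14:59440881-59441130, minus strand: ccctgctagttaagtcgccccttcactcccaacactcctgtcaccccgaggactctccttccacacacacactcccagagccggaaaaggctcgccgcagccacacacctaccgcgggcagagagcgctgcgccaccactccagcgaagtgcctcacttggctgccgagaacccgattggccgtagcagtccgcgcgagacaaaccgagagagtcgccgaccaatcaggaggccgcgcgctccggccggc
Txnip, chr3:96557707-96557956, plus strand, capitals marking a FOXO element (GTAAACA) whose first base lies at -121: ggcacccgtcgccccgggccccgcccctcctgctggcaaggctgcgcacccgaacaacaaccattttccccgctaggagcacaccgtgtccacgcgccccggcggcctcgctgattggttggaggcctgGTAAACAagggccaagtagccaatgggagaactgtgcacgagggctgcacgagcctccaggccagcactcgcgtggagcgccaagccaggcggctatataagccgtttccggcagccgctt
Zfp36, chr7:28379229-28379478, minus strand, capitals marking a serum response element whose first base lies at -58: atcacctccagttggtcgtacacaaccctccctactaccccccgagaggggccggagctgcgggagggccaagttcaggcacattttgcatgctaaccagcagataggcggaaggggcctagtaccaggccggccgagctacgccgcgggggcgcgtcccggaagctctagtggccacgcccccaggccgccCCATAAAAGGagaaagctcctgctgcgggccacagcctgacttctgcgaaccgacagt
The search covered the cAMP response element TGACGTCA, its core TGACG, which every full element also holds, the FOXO element GTAAACA, the glucocorticoid response element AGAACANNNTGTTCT and the serum response element by its name, on both strands of 300 bases (250 before the start and 50 after). Of 32851 mouse promoters 1.79% held the cAMP element, 20.8% its core, 3.65% the FOXO element, 1.63% the serum element and 0.00913% the glucocorticoid element. Of the 12 leading higher genes 10 had an entry, with 11 promoters, and the capitals above mark all the matches among them. A match is a run of letters in this window and nothing more.

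**Figure D1:**
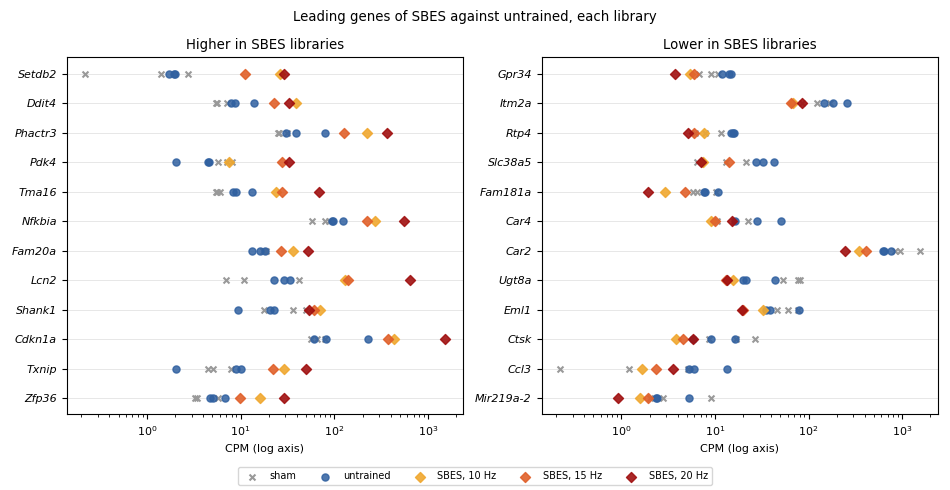
Level of the 12 leading genes in each direction (horizontal axis, CPM on a log scale), ordered from the top by unadjusted edgeR p. Each point is 1 library; the 3 stimulated libraries lie to the right of the 3 untrained ones in the left panel and to their left in the right panel because the rule for naming genes asked for it, and Setdb2 goes from under 2 CPM untrained to between 11.2 and 29.0 stimulated.

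Leading genes are those whose groups did not overlap, whose log2 fold change was 1 or more in size and whose mean FPKM reached 5 in one of the groups, taken in order of unadjusted p. In all 45 higher and 13 lower genes met these limits, and 12 in each direction are described. The lack of overlap is thus part of the choice. DESeq2 called all of the 12 higher genes but Cdkn1a (adjusted p 0.0755). Of the 12 lower ones it did not call Fam181a, Car4, Car2, Ugt8a, Eml1, Ctsk, Ccl3 and Mir219a-2 (adjusted p 0.0949 to 0.869). Among the higher ones, Ddit4, an inhibitor of the growth kinase mTORC1, was at 7.93, 8.74 and 13.8 CPM untrained and 39, 22.7 and 32.4 at 10, 15 and 20 Hz, a log2 fold change of 1.63 (SE 0.29, DESeq2 adjusted p 0.00117). Cdkn1a, the cell cycle inhibitor p21, was at 82.2, 60.4 and 226 CPM untrained and 436, 377 and 1517 stimulated, so that the 20 Hz library stood well above the other 2. Its log2 fold change of 2.66 (SE 0.58) was 1.72 without the 20 Hz library. Lcn2, the secreted iron carrier lipocalin 2 of acute-phase responses, was at 34, 29.3 and 22.5 CPM untrained and 129, 138 and 632 stimulated, and its log2 fold change of 3.39 (SE 0.72) was 2.23 without that library. Nfkbia, the inhibitor IκBα of NF-κB, was at 96.5, 94.8 and 125 CPM untrained and 269, 223 and 553 stimulated, with a log2 fold change of 1.73 (SE 0.33).

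Neuronal genes, here Phactr3 and Shank1, were among the leading ones as well. Phactr3, which binds actin and protein phosphatase 1, was at 30.6, 38.8 and 80.2 CPM in untrained libraries and 223, 128 and 361 in stimulated ones. Sham libraries, at 25.8, 31.4 and 25.1 CPM, lay near the lowest untrained one, and the log2 fold change of SBES over untrained was 2.25 (SE 0.41, DESeq2 adjusted p 0.000167). Shank1, a scaffold of the postsynaptic density, was at 9.39, 20.6 and 22.7 CPM untrained, 70.9, 60.3 and 53.2 stimulated and 49.6, 17.8 and 36.1 in sham. Here the 3 stimulated values lay close together, between 53.2 and 70.9, and the log2 fold change was 1.80 (SE 0.39, DESeq2 adjusted p 0.00599). Tma16, which takes part in assembly of the large ribosomal subunit, was at 8.99, 8.29 and 13.2 CPM untrained and 23.7, 27.6 and 67.9 stimulated, and Fam20a, a pseudokinase of the secretory pathway, at 16.1, 18.3 and 13.3 untrained and 36.2, 27.3 and 51.8 stimulated. The 20 Hz library was the highest for both, and their log2 fold changes were 1.97 (SE 0.38) and 1.28 (SE 0.26). Exons of Shank1, Cdkn1a, Txnip and Zfp36 overlap those of a gene on the other strand, and the strand setting of the counting is not given in the sources used here, so their counts may include the partner's reads.

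Targets of the glucocorticoid receptor stood higher in stimulated libraries as a list. All 28 targets listed were tested, 28 had a log2 fold change above 0 against 51.7% of all genes, and 22 had an unadjusted p under 0.05 and were higher against 3.7% of all genes. In 19 the groups did not overlap with SBES higher, against 5.66%. Their median log2 fold change was 1.57 beside 0.02 for all genes, and the members ran from 0.36 to 2.66. Some members had been named in earlier results of these data before the list was drawn up. Without the 8 known in that way, 20 of 20 were above 0, 14 had a p under 0.05 and the median was 1.03. The whole list was written with those earlier results known, so the 20 are not an independent set. None passed edgeR after adjustment, and DESeq2 called 7. Without the 20 Hz library the median was 0.96 with 15 members at p under 0.05, and without the replicate 1 libraries of all groups it was 1.18 with 21. With library totals all 28 were above 0 with a median of 1.33.

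Among feedback regulators of the receptor, Fkbp5, its co-chaperone, was at 11.7, 17 and 45.2 CPM untrained and 49.9, 38.1 and 65.5 stimulated. Untrained 3 lay inside the stimulated range, and the log2 fold change was 1.05 (SE 0.43, unadjusted p 0.031). Sham libraries held 7.08, 12.8 and 9.49 CPM. Tsc22d3, the leucine zipper protein GILZ, gave 0.73 (p 0.134) and Sgk1, a kinase that regulates ion transport, 1.01 (p 0.0935). Both are classic targets, and neither had a p under 0.05. Sgk1 was at 121, 217 and 260.4 CPM untrained and 383, 306 and 511 stimulated, with no overlap, and at 33.2, 132 and 20.7 in sham.

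The list also holds transcription factors. Zbtb16, the zinc finger protein PLZF, was at 3.97, 10.0 and 11.2 CPM untrained and 18.4, 17.9 and 50.7 stimulated, and the 20 Hz library again led (log2 fold change 1.79, SE 0.46, DESeq2 adjusted p 0.0488). Klf9 was at 54.5, 76.4 and 66.1 CPM untrained and 127, 84.3 and 135 stimulated, and Klf15, a regulator of amino acid and lipid use, at 37.6, 43.4 and 61.6 untrained and 69.9, 75 and 125 stimulated. Their log2 fold changes were 0.81 (SE 0.23) and 0.92 (SE 0.31), with unadjusted p of 0.00443 and 0.0107. Per1, a clock gene with receptor sites in its promoter, was at 2.12, 4.06 and 4.34 CPM untrained, 12.4, 7.56 and 6.56 stimulated and 1.63, 1.71 and 1.58 in sham. Its highest value was at 10 Hz and its lowest stimulated value at 20 Hz, and the log2 fold change was 1.32 (SE 0.36). Of all 20 clock genes 9 were above 0, with a median of -0.07. Among them Nfil3, a repressor, was at 7.67, 7.18 and 8.69 CPM untrained and 14.5, 12.6 and 16 stimulated (log2 fold change 0.87, p 0.00441), and Dbp, an activator, at 28, 58.4 and 46.8 untrained and 17.6, 27.2 and 31.7 stimulated (log2 fold change -0.80, p 0.025).

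**Figure D2:**
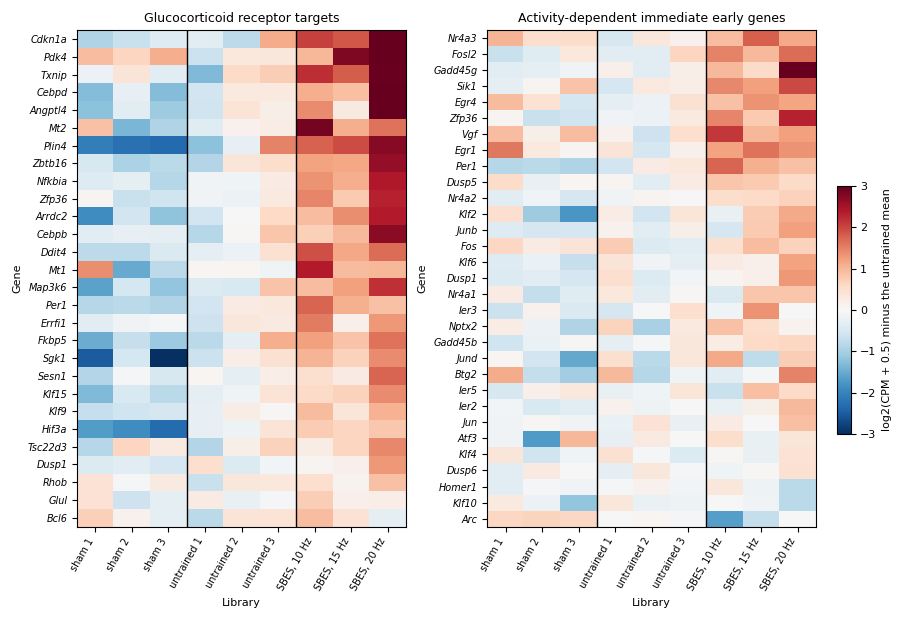
Level of each tested glucocorticoid receptor target (left, 28 genes) and immediate early gene (right, 31 genes) in each of the 9 libraries, as log2(CPM + 0.5) minus the mean of the 3 untrained libraries; red is higher, blue lower, and the scale stops at -3 and 3. Targets are red in nearly every stimulated column, and Arc at the foot of the right panel is the early gene with the lowest fold change.

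Genes of fuel use overlapped with these targets. Of 18 tested genes in a list of FOXO and fasting genes 15 were above 0, 11 had an unadjusted p under 0.05 and were higher, against 3.7% of all genes, and the median was 0.94 (0.57 without the 20 Hz library). The list shares 7 members with the glucocorticoid list. Pdk4, the kinase that closes the entry of pyruvate into mitochondria, was at 2.05, 4.45 and 4.58 CPM untrained and 7.47, 27.4 and 32.7 stimulated. The 10 Hz library lay nearer to the untrained ones and inside the sham values of 7.08, 5.78 and 8.07, and the log2 fold change was 2.61 (SE 0.49, DESeq2 adjusted p 0.000167). Txnip, which limits glucose uptake and binds thioredoxin, was at 2.05, 8.96 and 10.2 CPM untrained and 29.2, 22.1 and 49.3 stimulated, a log2 fold change of 2.24 (SE 0.50). The factors themselves stood higher, Foxo1 at 7.67, 14.9 and 14.2 CPM untrained and 18.3, 17.3 and 36.3 stimulated and Foxo3 at 4.36, 5.57 and 7.12 untrained and 8.25, 11 and 17.4 stimulated, with unadjusted p of 0.0135 and 0.00519. Insr, the insulin receptor, was at 11, 13.8 and 6.76 CPM untrained and 29.7, 17.6 and 14.8 stimulated (log2 fold change 0.97, p 0.0243). Angptl4, an inhibitor of lipoprotein lipase, was at 2.31, 5.18 and 4.34 CPM untrained and 10.8, 4.65 and 38 stimulated, so that the groups overlapped at a log2 fold change of 2.18. Genes of glycolysis and lactate had a median of -0.12, with 11 of 26 above 0, and nuclear-encoded genes of the respiratory chain a median of 0.01, with 43 of 82 above 0.

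Immediate early genes stood higher as a list, but not all of them. Of 31 tested 28 were above 0, against 51.7% of all genes, with a median of 0.59. Dusp1, Per1 and Zfp36 are also in the glucocorticoid list. An unadjusted p under 0.05 was found for 10, all higher, against 3.7% of all genes. The median was 0.37 without the 20 Hz library and 0.92 without the replicate 1 libraries. With library totals 26 were above 0 with a median of 0.43. Egr1, a zinc finger factor induced within minutes of firing, was at 22.9, 11.8 and 19.2 CPM untrained, 40.9, 55 and 44.6 stimulated and 52.8, 21.3 and 18.3 in sham. Its groups did not overlap, and the log2 fold change was 1.38 (SE 0.39, p 0.00368). Vgf, a neuropeptide precursor, was at 12, 6.96 and 15.9 CPM untrained and 49.8, 22.3 and 26.7 stimulated with the 10 Hz library highest (log2 fold change 1.5, SE 0.38, p 0.00186), and Sik1, a kinase that feeds back on CREB, at 0.595, 1.39 and 1.27 untrained and 3.68, 3.12 and 5.57 stimulated (log2 fold change 1.91, SE 0.48, p 0.00179). Zfp36, which speeds decay of AU-rich messenger RNAs, was at 5.02, 4.73 and 6.82 CPM untrained and 15.9, 9.78 and 28.9 stimulated. Gadd45g, a growth arrest gene, was at 50.2, 36.3 and 51 CPM untrained and 88.7, 68.1 and 365 stimulated, and the 20 Hz library stood far above the other 2 (log2 fold change 1.93). Nr4a3, Fosl2, Egr4 and Dusp5 also had a p under 0.05, at levels of at most 2.60 CPM in any of the 6 libraries.

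Fos and Arc, which are widely used as markers of firing, did not pass an unadjusted p of 0.05. Fos was at 47.9, 21.2 and 22.1 CPM untrained and 39.4, 54.4 and 45.5 stimulated, and untrained 1 lay inside the stimulated range (log2 fold change 0.61, SE 0.31, p 0.0697). Arc, whose protein acts at synapses, was at 12.4, 13.1 and 12.2 CPM untrained and 3.68, 7.42 and 12.4 stimulated, the lowest log2 fold change of the list at -0.67 (SE 0.34, p 0.0763). Junb gave 0.67 (p 0.0837), Nr4a1 0.55 (p 0.201) and Homer1 -0.18 (p 0.634). Of the 36 early genes listed 5 had too few counts to be tested. Bdnf, an activity-regulated neurotrophin outside that list, gave -0.10 (SE 0.57), with 25.3, 4.34 and 6.64 CPM untrained and 16.6, 10.9 and 6.49 stimulated.

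Cytokine and stress genes stood higher in part. Of 23 listed genes of interleukin 6 signalling, STAT3 and C/EBP 18 were tested, and Il6 itself had 0 counts in all 6 libraries. Of the 18, 16 were above 0 with a median of 0.40 (0.19 without untrained 1). An unadjusted p under 0.05 was found for 5, all higher, against 3.7% of all genes. Cebpb and Cebpd, and Mt1 and Mt2 below, are also in the glucocorticoid list. Cebpd, a C/EBP transcription factor, was at 12.8, 23.8 and 23.8 CPM untrained and 42.1, 36.8 and 194 stimulated, and its log2 fold change of 2.18 (SE 0.58) was 0.97 without the 20 Hz library. Stat3 was at 34.6, 42.5 and 49.9 CPM untrained and 57.7, 55.4 and 89.2 stimulated (log2 fold change 0.67, SE 0.24, p 0.0167). Il6ra, the interleukin 6 receptor, was at 2.31, 2.56 and 3.86 untrained and 6.13, 5.2 and 11.1 stimulated (log2 fold change 1.36, SE 0.38, p 0.0039), and Socs3, a feedback inhibitor of the pathway, at 0.793, 1.17 and 2.84 untrained and 3.23, 2.84 and 9.77 stimulated (log2 fold change 1.73, SE 0.60, p 0.0134, and 0.92 without the 20 Hz library). Exons of Cebpd, Cebpb and Il6ra overlap a gene on the other strand. The small heat shock protein gene Hspb1 was at 105, 192 and 192 CPM untrained and 392, 281 and 981 stimulated. Its log2 fold change of 1.76 (SE 0.43, DESeq2 adjusted p 0.0201) was 1.04 without the 20 Hz library. The list of 18 heat shock and chaperone genes had a median of 0.00, with 9 above 0. Of the 18, 3 with Hspb1 among them had an unadjusted p under 0.05 and were higher, against 3.7% of all genes. None was lower at that p. Metallothioneins, which bind zinc and copper, were highest at 10 Hz. Mt2 was at 781, 1100.0 and 1159.8 CPM untrained and 7266, 2116 and 3084 stimulated, and Mt1 at 5364, 5426 and 4769.9 untrained and 26862, 9949 and 10303 stimulated. Sham libraries held 13551, 1808 and 2983 CPM of Mt1, so sham 1 was above both the 15 and the 20 Hz library. The log2 fold change of Mt1, 1.60, was 0.97 without the 10 Hz library.

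NF-κB pathway genes did not stand higher as a list beside Nfkbia. Of 19 tested 8 were above 0 with a median of -0.16. Of these 19, 1, Nfkbia itself, had a p under 0.05 and was higher, against 3.7% of all genes. Nfkbia is also in the glucocorticoid list. Of 16 p53 targets 12 were above 0 with a median of 0.34, and 4 had a p under 0.05, all higher, against 3.7% of all genes. Without the 20 Hz library 9 were above 0 with a median of 0.15. The 4 at p under 0.05 in the main fit were Cdkn1a, Sesn1, Trp53inp1 and Ccng1. Of these, Cdkn1a and Sesn1 are also in the glucocorticoid list. Trp53inp1, a regulator of autophagy, was at 1.32, 3.34 and 2.53 CPM untrained and 8.13, 4.23 and 5.87 stimulated (log2 fold change 1.33, SE 0.39). Sesn1, a stress-induced inhibitor of mTORC1, was at 25.4, 20.0 and 28.1 untrained and 34.1, 28.8 and 82.1 stimulated, and its log2 fold change of 0.98 was 0.36 without the 20 Hz library.

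Of the 12 leading lower genes several are known from vessels, microglia or oligodendrocytes. In samples of this kind, fewer cells of a type and less RNA per cell cannot be told apart. Itm2a, a membrane protein of endothelium, was at 184, 259 and 145 CPM untrained and 68.6, 65.3 and 85.2 stimulated (log2 fold change -1.42, SE 0.29, DESeq2 adjusted p 0.00843). Slc38a5, a glutamine transporter of brain capillaries, was at 32.2, 42.5 and 27.6 CPM untrained, 7.35, 14.1 and 7.11 stimulated and 13, 21.3 and 6.49 in sham (log2 fold change -1.83, SE 0.41, DESeq2 adjusted p 0.00975). Slc22a8, an organic anion transporter of the same cells, was called by DESeq2 but is not a leading gene, as its mean FPKM was too low. It was at 15.5, 12.9 and 10.3 CPM untrained and 4.79, 4.99 and 3.59 stimulated (log2 fold change -1.54, SE 0.31, DESeq2 adjusted p 0.00975). Car4, a carbonic anhydrase on the capillary surface, was at 28, 50.9 and 16.5 CPM untrained and 9.02, 9.92 and 15.2 stimulated, and its log2 fold change of -1.48 was -0.96 without untrained 2. Ushbp1, called lower by DESeq2 (adjusted p 0.00518), was at 6.68, 9.13 and 5.13 CPM untrained and 1.11, 1.59 and 2.04 stimulated (log2 fold change -2.11, SE 0.41).

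Endothelial and pericyte markers split by member. Of 24 tested 12 were above 0 with a median of -0.14 (0.12 without untrained 2). Of these 4 had an unadjusted p under 0.05 and were higher, against 3.7% of all genes, and 5 were lower, against 1.67%. Lower with Itm2a and Slc38a5 were the anion and hormone transporters Slco1c1 (16, 24 and 19.3 CPM untrained, 7.35, 12.8 and 5.19 stimulated) and Slco1a4 (34.4, 41.6 and 29.7 untrained and 20.2, 24.1 and 14.8 stimulated), and Kdr, the VEGF receptor (4.69, 5.73 and 2.65 untrained and 2.23, 1.73 and 2.72 stimulated). Higher were Vwf, the von Willebrand factor gene (4.1, 6.9 and 9.17 CPM untrained and 16.2, 16.4 and 12.7 stimulated), Mfsd2a, a lipid transporter of the blood-brain barrier (37.3, 50.4 and 96.5 untrained and 118, 101 and 139 stimulated), Slc2a1, the glucose transporter (227, 233 and 249 untrained and 282, 291 and 510.1 stimulated), and Ly6c1 (278, 325 and 300.4 untrained and 422, 436 and 555 stimulated), a gene with a near-identical neighbour. The pan-endothelial genes Cldn5, a tight junction gene, and Pecam1, an adhesion gene, gave -0.29 (SE 0.39) and 0.42 (SE 0.41). The summed level of the list ran from 1241 to 1583 CPM in untrained and 1257 to 1793 CPM in stimulated libraries, and no marker of the list was at 0 in any library. Vegfa, the ligand of Kdr, was at 5.68, 21.4 and 12.2 CPM untrained and 6.02, 8.88 and 5.26 stimulated (log2 fold change -0.96, SE 0.42, p 0.0412), and -0.41 without untrained 2.

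**Figure D3:**
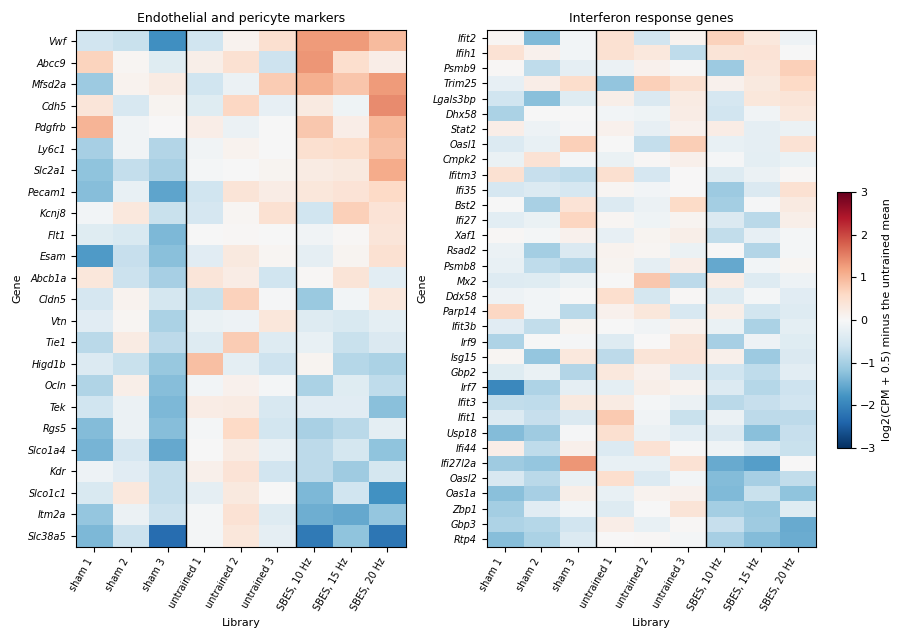
Level of 24 endothelial and pericyte markers (left) and 34 interferon response genes (right) in each of the 9 libraries, as log2(CPM + 0.5) minus the mean of the 3 untrained libraries, ordered by log2 fold change; red is higher, blue lower. The left panel runs from Vwf at the top, red in the stimulated columns, to Slc38a5 at the foot, blue in all 3, and most rows of the right panel are blue in the stimulated columns.

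Interferon response genes stood lower in stimulated libraries. Of 35 tested 5 had a log2 fold change above 0, against 51.7% of all genes, and 30 below it. An unadjusted p under 0.05 was found for 6, all lower, against 1.67% of all genes. The median was -0.38, between -0.57 and -0.29 with any 1 library left out. Rtp4, an interferon-induced chaperone, was at 15.7, 15.9 and 14.9 CPM untrained and 7.58, 5.96 and 5.19 stimulated (log2 fold change -1.32, SE 0.29, DESeq2 adjusted p 0.0218). The untrained values were nearly equal, and all 3 stimulated values lay well below them. Gbp3, a guanylate-binding protein, was at 4.36, 3.12 and 3.86 CPM untrained and 2.12, 1.53 and 0.989 stimulated (log2 fold change -1.31, SE 0.37, p 0.00419), and the oligoadenylate synthetase-like gene Oasl2 at 10.1, 5.12 and 6.64 untrained and 2.56, 3.26 and 4.02 stimulated (log2 fold change -1.14, SE 0.34, p 0.00585). Oas1a, Ifit3 and Zbp1 were the other 3. With library totals 32 of 35 were below 0 with a median of -0.60. Sham values, at 6.1, 7.74 and 11.6 for Rtp4, 1.74, 1.84 and 2.34 for Gbp3 and 4.9, 3.81 and 5.94 for Oasl2, lay inside or above the stimulated range. Irf7, an inducing factor of the pathway, gave -0.69 (p 0.108). Exons of Rtp4 overlap those of another gene model on the same strand, and Ifit3 has a near-identical neighbour, Ifit3b, at -0.47. Setdb2, which is itself known as an interferon-induced gene in myeloid cells, stood higher.

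Some markers of resting microglia stood lower. Gpr34, a lysophospholipid receptor of resting microglia, was at 11.8, 14.1 and 14.7 CPM untrained and 5.46, 6.03 and 3.77 stimulated (log2 fold change -1.42, SE 0.28, DESeq2 adjusted p 0.00703). P2ry12, the ADP receptor that guides their processes, was at 22.2, 19.1 and 17 CPM untrained and 14.4, 6.93 and 9.34 stimulated (log2 fold change -0.94, SE 0.30, p 0.00892), and Aif1, the calcium-binding protein Iba1, at 66.2, 39.1 and 34.9 untrained and 17.9, 30.2 and 27.4 stimulated (log2 fold change -0.89, p 0.045). The whole list of 19 homeostatic markers had 9 above 0 and a median of 0.00, between -0.36 and 0.21 with any 1 library left out, and its summed level ran from 1435 to 1489 CPM untrained and 972 to 2161 CPM stimulated. Ccl3, a chemokine of activated microglia, was at 5.29, 5.9 and 13.3 CPM untrained and 1.67, 2.36 and 3.59 stimulated (log2 fold change -1.66, p 0.0439). Ch25h, the cholesterol 25-hydroxylase gene of the same list, was higher, at 2.91, 3.45 and 7.54 CPM untrained and 4.57, 20.3 and 25.1 stimulated (log2 fold change 1.85, SE 0.74, p 0.0268). Of the 15 activated microglia genes 11 were above 0 with a median of 0.30, or 6 with a median of 0.00 without the 20 Hz library. Apoe, the main lipid carrier of glia, was at 15476, 9299 and 13802 CPM untrained and 25463, 26262 and 21023 stimulated with no overlap (log2 fold change 0.92, SE 0.64, p 0.18). Complement genes were above 0 in 12 of 14 with a median of 0.67 (0.43 without the 15 Hz library), but none had a p under 0.05, and the 10 Hz library did not stand with the other 2. C1qa was at 169, 247 and 267 CPM untrained and 174, 443 and 714 stimulated.

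Of the other leading lower genes, Ugt8a, which makes the myelin lipid galactosylceramide, was at 21.5, 43.4 and 20.0 CPM untrained, 15.6, 13.1 and 13.5 stimulated and 80.3, 53.4 and 77.9 in sham. Its log2 fold change of -1.01 (SE 0.31) was -0.56 without untrained 2. Car2, a carbonic anhydrase that is abundant in oligodendrocytes, was at 636, 762 and 621 CPM untrained and 349, 415 and 243 stimulated with sham at 1550.3, 832 and 947 (log2 fold change -1.01, SE 0.29, p 0.00488). Ermn, a cytoskeletal protein of the same cells that is not a leading gene, was at 107, 129.6 and 81.3 CPM untrained and 78.7, 68.7 and 68.5 stimulated (log2 fold change -0.56, p 0.0429). The 23 oligodendrocyte markers as a list did not share this, with 15 above 0. At p under 0.05, 2 were lower, against 1.67% of all genes, and none was higher, against 3.7%. The list median of 0.16 was -0.18 without the 20 Hz library and -0.09 with library totals. The hairpin gene Mir219a-2, whose microRNA drives oligodendrocyte maturation, was at 2.38, 5.29 and 2.35 CPM untrained and 1.56, 1.94 and 0.928 stimulated (p 0.0657), and it overlaps Mir219b on the other strand. Eml1, a microtubule-binding protein, was at 34.7, 79.2 and 38.8 CPM untrained and 32.4, 20.0 and 19.5 stimulated, Ctsk, the protease cathepsin K, at 5.88, 16.5 and 8.99 untrained and 3.79, 4.51 and 5.75 stimulated, and Fam181a at 7.6, 7.9 and 10.8 untrained and 2.9, 4.78 and 1.92 stimulated. The log2 fold changes of Eml1 and Ctsk, -1.09 and -1.15, were -0.62 and -0.66 without untrained 2. Of the 3 only Fam181a had an unadjusted p under 0.005 (0.00214). Depdc7, called by DESeq2 (adjusted p 0.013), was at 5.62, 5.96 and 4.89 CPM untrained, 1.34, 2.5 and 1.73 stimulated and 8.39, 9.27 and 9.76 in sham. Exons of Eml1, P2ry12, Ch25h, Mt2, Nefm and S1pr3 also overlap those of another gene.

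No marker of the motoneurons themselves passed even an unadjusted p of 0.05. Of 26 tested 14 were above 0 with a median of 0.04, or -0.18 with library totals, close to the median of all genes under that scaling. Chat gave -0.10 (SE 0.29), Slc18a3, the vesicular acetylcholine transporter, 0.59 (SE 0.42), the intermediate filament gene Prph 0.22 (SE 0.43), and the identity factors Isl1 and Mnx1 -0.12 (SE 0.35) and -0.27 (SE 0.46). With SEs of 0.29 to 0.46 on the log2 scale, differences of this size lie within the spread. Ache, which breaks acetylcholine down, was at 132, 127 and 194 CPM untrained and 211, 201 and 203 stimulated, with no overlap (log2 fold change 0.44, SE 0.23, p 0.0775). The summed level of the list ran from 770.1 to 1153 CPM untrained and 1043 to 1654 CPM stimulated.

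Some genes of excitability stood higher. Among 41 tested ion channel genes 28 were above 0 and 5 had an unadjusted p under 0.05, all higher, against 3.7% of all genes. The median was 0.14, but -0.11 with library totals, which lies above the median of all genes under that scaling. Without the 10 Hz library 22 were above 0 with a median of 0.01, and without untrained 1 the median was 0.37. Among the 5 were the potassium channels of fast spiking Kcnc1 and Kcna1. Kcnc1 was at 64.4, 59.9 and 67 CPM untrained and 90.6, 102 and 116 stimulated (log2 fold change 0.69, SE 0.22, p 0.00743), and Kcna1 at 56.3, 91.1 and 84.7 untrained and 127, 106 and 130.0 stimulated (log2 fold change 0.64, SE 0.22, p 0.0136). In both the groups did not overlap, and sham values were 114, 75.5 and 97 for Kcnc1 and 89.6, 82.6 and 87.7 for Kcna1. Hcn2, a channel of the hyperpolarisation-activated current, was at 5.29, 9.02 and 7.66 CPM untrained and 51.1, 7.07 and 15 stimulated, so that the 10 Hz library alone stood far above (log2 fold change 1.72). Kcnk3, a leak channel, showed the same at 6.41, 9.57 and 9.17 untrained and 26.5, 8.6 and 10.5 stimulated. Scn4b, a sodium channel subunit, was at 26.8, 118 and 93.3 CPM untrained and 153, 157 and 129.7 stimulated (p 0.0574).

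The level of pan-neuronal genes turned on the 10 Hz library. Of 23 tested 14 were above 0 with a median of 0.35, which was 0.04 without the 10 Hz library. The neurofilament genes Nefh (386, 555 and 521 CPM untrained, 1545, 395 and 1049 stimulated) and Nefm (605, 808 and 674 untrained and 1935, 756 and 1188 stimulated) had unadjusted p of 0.0271 and 0.0366, with the 15 Hz library inside the untrained range in each. Their log2 fold changes of 1.03 and 0.89 were 0.57 and 0.48 without the 10 Hz library. Genes of synaptic vesicle release had a median of 0.13, or -0.13 with library totals, with none of 23 at p under 0.05, and receptors of glutamate, GABA and glycine a median of -0.09 with none of 27. Regeneration-associated genes had 20 of 31 above 0, against 51.7% of all genes, and 5 higher at p under 0.05, against 3.7%, with none lower. Without the 10 Hz library 16 were above 0, and the median of 0.25 became 0.01. The 5 were Stat3, Socs3, Cebpd, Hspb1 and Gadd45a, and the growth-cone members of that list were not among them. Stat3, Socs3 and Cebpd are also in the interleukin 6 list. Of neurotrophic genes Ngfr, the low-affinity neurotrophin receptor, was at 0.331, 0.223 and 0.302 CPM untrained and 0.557, 0.902 and 0.804 stimulated (p 0.0334) and Ntf3, neurotrophin 3, at 0.595, 0.612 and 0.543 untrained and 0, 0.139 and 0.247 stimulated (p 0.0129), all below 1 CPM.

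**Figure D4:**
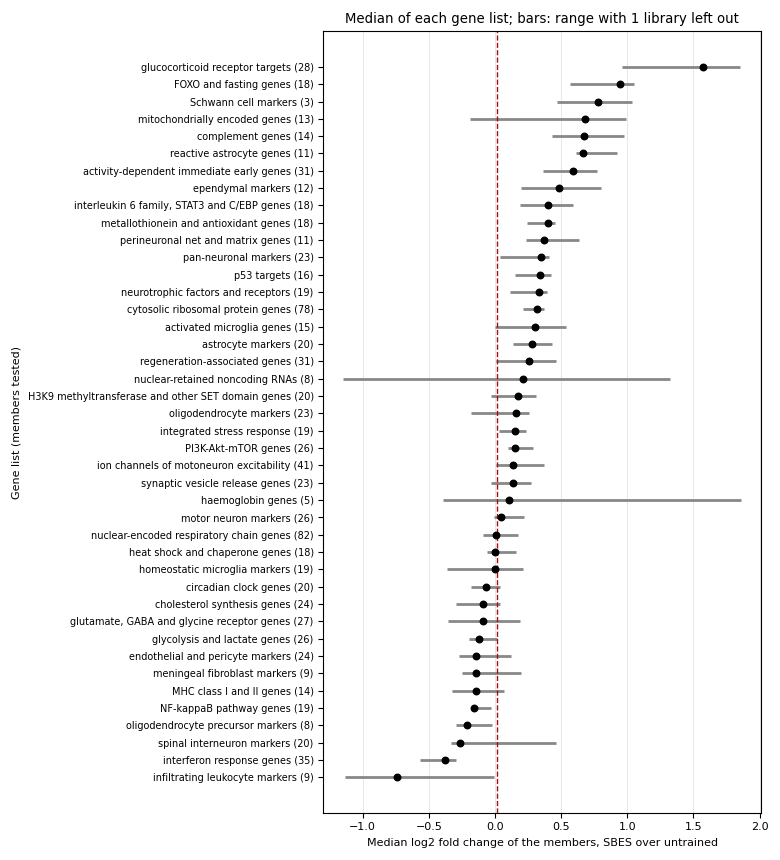
Median log2 fold change of SBES over untrained for each of the 42 gene lists (points; members tested in brackets), with the range of the median when any 1 of the 6 libraries is left out (bars) and the median of all 15893 genes (dashed line). Glucocorticoid receptor targets stand at 1.57 with a bar from 0.96 to 1.85, while the bars of mitochondrially encoded genes and nuclear noncoding RNAs cross the dashed line.

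Markers of other cells were present in every library. Astrocyte markers had 19 of 20 above 0, against 51.7% of all genes, and none at p under 0.05 (median 0.28, or 0.14 without untrained 1). Their summed levels were 15356 to 21923 CPM untrained and 17765 to 19451 CPM stimulated. Oligodendrocyte markers summed to 41002 to 61387 and 49315 to 80137 CPM, and none of the 20 and 23 markers of these lists was at 0 in any of the 6 libraries. Of 11 reactive astrocyte genes 10 were above 0, against 51.7% of all genes, with a median of 0.66. At an unadjusted p under 0.05, 3 were higher, against 3.7% of all genes. These were Lcn2, Serpina3n, a protease inhibitor (96, 75.1 and 145 CPM untrained, 137, 253 and 411 stimulated, log2 fold change 1.34, or 0.89 without the 20 Hz library), and Aspg (1.12, 2.56 and 5.25 untrained, 3.68, 7.28 and 9.52 stimulated), while S1pr3, a sphingolipid receptor, was lower (4.63, 3.06 and 5.61 untrained, 3.23, 2.01 and 1.36 stimulated, p 0.0229). Gfap, the filament of reactive astrocytes, gave 0.37 (SE 0.45). Summed levels of the list ran from 1335 to 3921 CPM untrained and 1993 to 5572 CPM stimulated. Blood leukocyte markers summed to 305 to 812 CPM untrained and 184 to 576 CPM stimulated, with 2 to 4 of 19 at 0 in each library and Ms4a1 at 0 in all 6. Haemoglobin genes, a trace of blood, summed to 32.2 to 856 and 191 to 281 CPM, with untrained 1 highest. Ependymal markers summed to 38.8 to 69.1 and 46.1 to 85.6 CPM, meningeal fibroblast markers to 53.9 to 72.8 and 85.6 to 95.9, and Schwann cell markers to 3.7 to 7.9 and 6.49 to 10.5. Ependymal and meningeal lists had at most 2 and 1 members at 0 in a library, and 2 to 4 of the 8 Schwann cell markers were at 0 in each. The part of these cells in the results above was not tested.

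Of genes that reflect RNA composition, mitochondrial genes and nuclear noncoding RNAs varied with single libraries. Ribosomal protein genes had list medians of 0.46, 0.27 and 0.18 stimulated and 0.10, -0.02 and -0.09 untrained, relative to the untrained mean on the log2 scale. The 13 mitochondrially encoded genes had a median of 0.68, which was -0.19 without the 10 Hz library. Cytosolic ribosomal protein genes were above 0 in 71 of 78, against 51.7% of all genes, with a median of 0.31. In 29 the groups did not overlap with SBES higher, against 5.66% of all genes, and in 1 with SBES lower, against 4.77%. At an unadjusted p under 0.05, 4 were higher, against 3.7% of all genes, and 1 was lower, against 1.67%. These genes have many processed copies that share reads. Nuclear noncoding RNAs had a median of 0.21, between -1.15 and 1.32 with any 1 library left out, and Malat1 was at 15296, 1100.2 and 466 CPM untrained and 6288, 752 and 1474 stimulated. With Malat1 as a covariate the glucocorticoid median was 1.48 and the interferon median -0.37. That covariate does not take in mitochondrial counts, and the part of RNA composition in the other results was not tested.

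**Figure D5:**
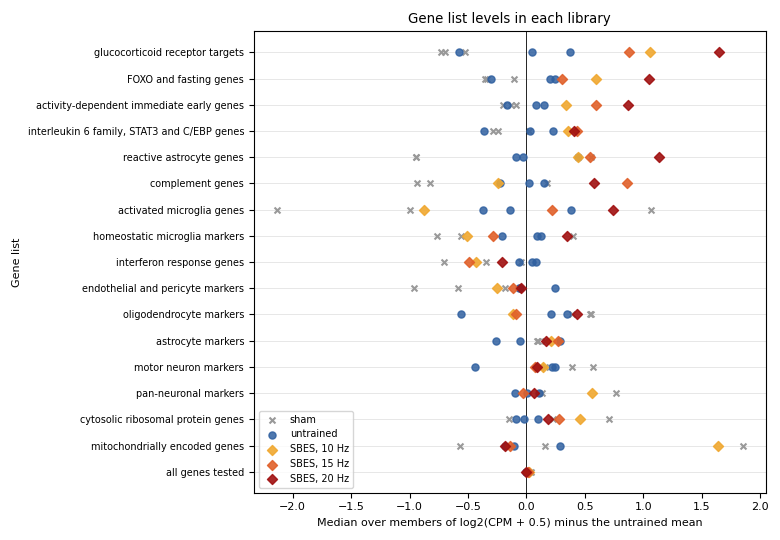
Median level of 16 gene lists and of all genes in each of the 9 libraries (horizontal axis, log2(CPM + 0.5) minus the untrained mean, median over members). For glucocorticoid targets the 3 stimulated libraries stand between 0.88 and 1.65 and the untrained ones between -0.57 and 0.37, whereas for complement and activated microglia genes the 10 Hz library lies below the lowest untrained one.

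The 3 frequencies are given side by side, as 1 library each. The median level of glucocorticoid targets, relative to the untrained mean on the log2 scale, was 1.06, 0.88 and 1.65 at 10, 15 and 20 Hz, against -0.57, 0.05 and 0.37 in untrained libraries and -0.73, -0.53 and -0.70 in sham. Immediate early genes stood at 0.34, 0.60 and 0.87, reactive astrocyte genes at 0.44, 0.55 and 1.13, interferon genes at -0.43, -0.49 and -0.21 and complement genes at -0.24, 0.86 and 0.58. The first 3 of these lists were highest in the 20 Hz library and complement genes in the 15 Hz library. Among the 45 higher genes that met the limits for naming, the 20 Hz library was the highest of the 3 for 29 (64.4%). The 10 Hz library was highest for 13 and the 15 Hz library for 3. Over all genes tested the 20 Hz library was highest for 32.0% and the 10 Hz library for 39.8%. For the 588 genes higher at an unadjusted p under 0.05, these shares were 44.7% and 40.6%. Without the 20 Hz library 762 genes had an unadjusted p under 0.05 in place of 854. Whether a difference between these libraries belongs to the frequency, the mouse or the library cannot be told apart.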

How the data were processed

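Per the labels' protocols, the authors used Hisat2 2.0.1 for alignment, HTSeq 0.6.1 for gene counts and DESeq2 as their test. Per the submitters' processing notes the genome is mm10. Neither the release of the gene annotation nor the use of strand in counting is given in the sources used here. Whole-number counts and FPKM were deposited by the authors for 55401 genes. FPKM recomputed from the counts and exonic lengths came within 0.006 of 100% of the deposited values.

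SBES minus untrained was tested with edgeR 4.0.16 (R 4.3.3) on those counts. The fit took all 9 libraries, a coefficient per group, filterByExpr (15893 genes), TMM factors and the quasi-likelihood test, with 6 residual degrees of freedom and a call at a Benjamini-Hochberg adjusted p under 0.05. CPM uses TMM-adjusted totals. The median SE was 0.34 on the log2 scale. The script was tested on simulated data. Read copies from PCR are counted as reads, so counts are not molecules.

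Named genes were up to 12 per direction under the limits given in the text, up to 3 members of smallest p of lists whose median lay at least 0.2 from that of all genes, fixed markers, and up to 12 DESeq2 calls per direction. Predicted genes, pseudogenes and haemoglobins stayed out of the first group. Other members of the 42 lists are named to describe their list. The members and lists were chosen with earlier results of these data known, and no list was tested as a set. The values of some list members are not reported here. Alternatives were DESeq2 1.42.0, limma 3.58.1 on log2(FPKM + 1) and log2(FPKM + 0.1), other scalings and filters, a replicate block, a Malat1 covariate, the 6 libraries alone and each library left out.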

Additional observations from a re-analysis of the deposited data

How the results depend on the processing

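The count of genes called, 0 with edgeR, was 29 with DESeq2, 1 with limma on log2(FPKM + 1), 186 with no filter on low counts (139 higher, 47 lower) and 13 without the replicate 1 libraries of all groups. It lay between 0 and 1 with any 1 of the 6 libraries left out, the 1 being Pdk4 without the 10 Hz library. The limma call was Setdb2. Genes at an unadjusted p under 0.05, 854 in number, came to 1304 with Malat1 as a covariate, 376 with limma on log2(FPKM + 0.1), 393 with limma on log2(FPKM + 1), 1424 with no filter and 1546 without the replicate 1 libraries, and between 737 and 996 with any 1 library left out. The cause was not tested. Same-numbered untrained and SBES libraries deviated from their group means with correlations of 0.24, -0.17 and 0.26 for numbers 1 to 3. Pairs with different numbers ran from -0.36 to 0.20. As given above, untrained 1, the 10 Hz library and sham 1 shared high Malat1. Whether same-numbered libraries were prepared together is not stated in the sources used here, and these correlations cannot decide it. With the replicate block 0 genes were called and 1156 had an unadjusted p under 0.05, and with the replicate block on the 6 libraries alone 2 were called, Cdkn1a and Setdb2, and 861 had such a p. The other alternatives kept both counts within 1.5 times. For the named genes, 70 values over all alternatives together passed the adjusted threshold that none passed in the reported test. Most of them came from the fit with no filter on low counts and from DESeq2. Precision is set by 3 libraries a group, with a median SE of 0.34 on the log2 scale.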

Other observations

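Leaving out the replicate 1 libraries of all 3 groups, the 13 genes called were Pdk4, Lcn2, Slc43a3, Gpnmb, Ifi30, Saa3, Setdb2, Apoc4, Gm19935, Cd300lf, Prelp and Egr1, which were higher, and Tubb2b, which was lower. Several of the higher ones are genes of lipid-laden or activated phagocytes. Gpnmb, a membrane glycoprotein of such cells, was at 6.74, 9.91 and 19.8 CPM in untrained libraries 1 to 3 and 4.01, 98.7 and 60.7 at 10, 15 and 20 Hz. Apoc4 was at 3.7, 1.84 and 2.71 CPM untrained and 0.557, 39 and 11.7 stimulated, and Ifi30, a lysosomal thiol reductase, at 6.87, 9.69 and 8.26 untrained and 8.69, 27.2 and 28.9 stimulated. In all 3 genes the 10 Hz library lay within or below the untrained values and the 15 and 20 Hz libraries above them.

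DESeq2 also called genes that the limits for leading genes left out. Slc43a3, a purine base transporter, was at 0.661, 0.779 and 1.57 CPM untrained and 2.23, 11.8 and 6.99 stimulated (DESeq2 adjusted p 0.0194). Slc10a6, a steroid sulphate transporter, was at 0.198, 0.278 and 0.844 CPM untrained and 2.79, 1.32 and 9.34 stimulated (0.0201), with 0 counts in the 3 sham libraries. The RIKEN gene 5330429C05Rik was at 0.264, 0.167 and 0.121 CPM untrained and 1.67, 1.8 and 12.1 stimulated (0.000167). Hr, a nuclear receptor corepressor, was at 1.92, 8.41 and 13.7 CPM untrained and 24.8, 34.8 and 36.1 stimulated (0.0284), Sgk3, a kinase related to Sgk1, at 4.49, 7.4 and 12.2 untrained and 22.6, 15.3 and 35.2 stimulated (0.0411), Wnt3, a secreted signal, at 11.8, 21.6 and 27.1 untrained and 48.1, 37.5 and 92.1 stimulated (0.0300), and Tgfbi, a matrix protein induced by TGF-β, at 1.98, 3.12 and 1.57 untrained and 5.68, 7.7 and 6.06 stimulated (0.0495). The last 4, and the 3 genes described above from the fit without the replicate 1 libraries, were chosen after their values were seen; with the 4, all 29 DESeq2 calls have been named.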
